A study of Mus musculus with 8 samples.

Results

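*Glul*, *Slc1a3*, *Aqp4*, *Kcnj10* and *Vim* are 5 genes that mark Müller glia in the undisturbed retina. They were chosen by name for their roles in glutamine synthesis, glutamate uptake, water and potassium transport and the cytoskeleton, at a time when other results of these libraries were known. All 5 were found among the 31053 genes in the count files, and all 5 were among the 12889 genes with enough counts to be tested. RNA of RPE isolated at postnatal day 29 (P29) was sequenced from 4 *Bbs8*-/- mice and from 4 *Bbs8*+/+ littermates, all untreated and of the C57/Bl6 strain. The libraries were made from 30 ng of RNA with a 3′ protocol, which reads the end of each polyadenylated transcript. Each animal gave 1 library, and n is 4 libraries per genotype throughout. *Bbs8*, named *Ttc8* in the annotation, encodes a subunit of the BBSome, a complex that sorts membrane proteins in cilia. The deletion is not limited to the RPE, so the photoreceptors and glia of the same *Bbs8*-/- eyes also lacked the gene. RPE sheets were peeled from eyecups after removal of the retina and treatment with trypsin, with no sorting of cells.

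Müller glia are the radial glia of the vertebrate retina and span it from the inner limiting membrane to the photoreceptor inner segments. They take up glutamate released by neurons, convert it to glutamine and return it, and they carry potassium and water away from active synapses through channels held at their endfeet. After retinal injury they are known to become reactive, with more intermediate filament protein and, in many models, less of the enzymes and channels of their resting state. Several of the genes that mark them are also used by other cells of the eye, vimentin by RPE, fibroblasts and endothelium among them.

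The *Bbs8*+/+ libraries held 2495094 to 3093428 counts on genes, and those of *Bbs8*-/- held 2389835 to 2736289. A gene with 3 counts, taken here as the floor, stood at 1.02 to 1.23 CPM (counts relative to the library total, scaled by the trimmed mean of M values). This floor covers counting error only. *Ttc8* (ENSMUSG00000021013) had 105, 142, 144 and 116 counts in *Bbs8*+/+ and only 15, 5, 14 and 15 in *Bbs8*-/-, a log2 fold change of -3.34 (edgeR adjusted p = 2.48e-11). Of all genes tested, 12.3% were differentially expressed at an adjusted p under 0.05, 5.46% higher and 6.80% lower in *Bbs8*-/-. With libraries scaled by their size alone, the 704 genes called higher and 877 called lower became 1008 and 654. The median log2 fold change of all genes tested was 0.02. The *Bbs8*+/+ library of replicate 1 differed more from the others of its genotype (chi-square per degree of freedom 6.07 to 7.51) than those did among themselves (2.87 to 3.41).

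The sequences upstream of *Glul* and *Slc1a3* are shown because these genes carry out the paired steps of glutamate uptake and conversion, and because *Glul* was the only 1 of the 5 genes to pass the test. They are the 250 bases before the transcript start in RefSeq (GRCm38.p6), chr1:153899679-153899928 on the plus strand for *Glul* and chr15:8710808-8711057 on the minus strand for *Slc1a3*, written 5′ to 3′. Capitals mark the CCAAT box, the GC box written GGGCGG, the TATA box written TATAAA, and the pattern TTCNNNGAA that STAT factors are known to bind. Each was searched on both strands, so that a reverse complement of these letters is also in capitals, and no match overlapped another.
Glul: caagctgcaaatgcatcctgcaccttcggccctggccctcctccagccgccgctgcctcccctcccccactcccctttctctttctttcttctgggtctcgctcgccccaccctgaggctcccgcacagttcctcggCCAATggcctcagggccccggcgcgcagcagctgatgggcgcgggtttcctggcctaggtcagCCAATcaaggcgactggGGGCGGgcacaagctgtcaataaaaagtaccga
Slc1a3: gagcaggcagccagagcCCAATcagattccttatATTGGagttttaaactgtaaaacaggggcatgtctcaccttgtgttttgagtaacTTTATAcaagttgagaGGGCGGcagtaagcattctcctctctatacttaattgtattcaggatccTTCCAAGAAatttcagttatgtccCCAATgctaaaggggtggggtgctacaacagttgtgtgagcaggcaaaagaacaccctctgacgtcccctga
The *Glul* window held 2 CCAAT matches and 1 GC box and no match to the other patterns. The *Slc1a3* window held 3 CCAAT matches, 1 GC box, 1 TATAAA and 1 TTCNNNGAA match. Of 32851 RefSeq promoter windows of the same length, 33.8% held CCAAT, 32.7% the GC box, 12.4% TATAAA and 7.02% TTCNNNGAA. These are matches of letters, and binding of any factor was not measured.

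*Glul* encodes glutamine synthetase, the enzyme that turns glutamate and ammonia into glutamine. It was up-regulated in *Bbs8*-/- RPE, and it was the 1 gene of the 5 called in either direction. *Glul* (ENSMUSG00000026473, chr1:153899944-153909723, plus strand, GRCm38) had 1090, 1199, 1273 and 1243 CPM in *Bbs8*+/+ and 1760, 1644, 1761 and 1685 CPM in the *Bbs8*-/- libraries. Every *Bbs8*-/- library was higher than every *Bbs8*+/+ library, as was the case for 7.42% of all genes tested (16.1% did not overlap in either direction). The mean rose from 1201 ± 80.1 to 1712 ± 57.8 CPM (SD, n = 4), a ratio of means of 1.43. The log2 fold change was 0.51 (standard error 0.06, 95% interval 0.38 to 0.64, edgeR adjusted p = 1.22e-07). Under 15 alternative settings the log2 fold change of *Glul* was between 0.47 and 0.60, and it was called in each of the 15. In bulk RNA, more cells that express a gene and more of its RNA per cell cannot be told apart. The change was moderate in size, since 17.1% of all genes tested and 78.1% of the genes called higher had a larger log2 fold change. With 3108 to 4812 counts in each library, *Glul* lay in the range of expression where calls were most frequent. Of the 66 genes whose mean reached 1000 CPM, 71.2% were called, against 1.78% of the 2754 genes under 5 CPM.

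**Figure D1:**
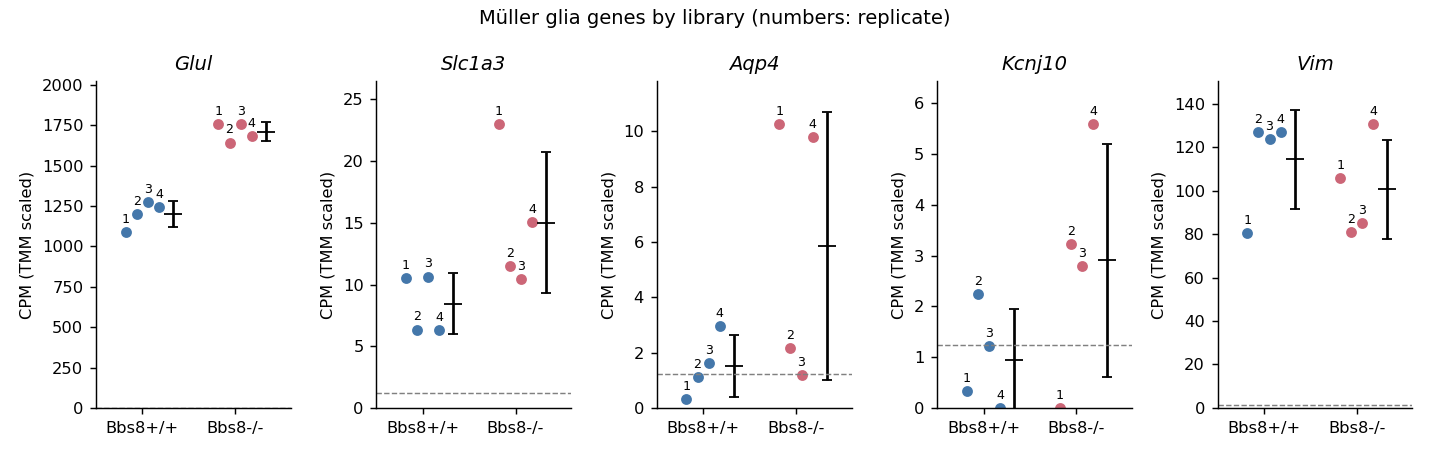
Level of each of the 5 genes in CPM (TMM scaled, linear axes that differ between panels) in the 4 *Bbs8*+/+ and 4 *Bbs8*-/- libraries, with the replicate number beside each point, the mean as a horizontal mark and the SD as a vertical bar; the dashed line is the highest floor of any library, 1.23 CPM. The genotypes are separate for *Glul* (at most 1273 against at least 1644 CPM) and overlap for the other 4 genes, and *Aqp4* and *Kcnj10* lie at the floor in several libraries.

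*Rlbp1*, which encodes the retinaldehyde-binding protein of both RPE and Müller glia, was not called. It stood at 1842 ± 61.7 CPM in *Bbs8*+/+ and 1892 ± 57.0 CPM in *Bbs8*-/- (log2 fold change 0.04, edgeR adjusted p = 0.772). Set against it, *Glul* had 565, 653, 699 and 697 counts per 1000 *Rlbp1* counts in *Bbs8*+/+ and 951, 877, 891 and 902 in the *Bbs8*-/- libraries. This ratio is taken within a library and so does not depend on scaling, and the genotypes again did not overlap. *Teddm2*, a gene that overlaps *Glul* on the opposite strand, had at most 6 counts in any library and 23 in all 8 together. The strand setting of the counting is not given in the sources used here.

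*Slc1a3* encodes GLAST, the glutamate transporter of Müller glia and some astrocytes. It was detected in every library but was not called. *Slc1a3* (ENSMUSG00000005360, chr15:8634124-8710764, minus strand) had 31, 17, 26 and 17 counts in *Bbs8*+/+ against 56, 32, 26 and 43 counts in the *Bbs8*-/- libraries. In CPM the values were 10.5, 6.35, 10.6 and 6.33 against 23.0, 11.5, 10.4 and 15.1. The *Bbs8*-/- library of replicate 3 fell within the *Bbs8*+/+ range and that of replicate 1 was the highest of the 8. The means were 8.46 ± 2.45 and 15 ± 5.71 CPM (SD, n = 4). The log2 fold change was 0.82 (standard error 0.35, 95% interval 0.10 to 1.53), with an edgeR p of 0.0258 before and 0.139 after adjustment. It was positive under all 15 alternatives, 0.54 to 0.96, and called under none of them, with adjusted p-values of 0.0894 to 0.429. Of the 3879 genes at 5 to 20 CPM, 5.18% were called, and their median standard error was 0.37.

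*Aqp4* encodes the water channel of Müller glia and astrocyte endfeet. It was near the floor in most libraries. *Aqp4* (ENSMUSG00000024411, on the minus strand of chromosome 18) had 1, 3, 4 and 8 counts in *Bbs8*+/+ against 25, 6, 3 and 28 counts in the *Bbs8*-/- libraries. The *Bbs8*-/- libraries of replicates 1 and 4, at 10.3 and 9.80 CPM, were above all others, while those of replicates 2 and 3, at 2.15 and 1.20 CPM, lay within the *Bbs8*+/+ range of 0.339 to 2.98 CPM. At or under the floor were 2 of the 4 *Bbs8*+/+ libraries and 1 of the 4 *Bbs8*-/- libraries. The log2 fold change was 1.93 (standard error 0.77, 95% interval 0.38 to 3.48), with an edgeR p of 0.0163 before and 0.102 after adjustment. *Aqp4* was not called, and of 14 alternatives only the fit without the *Bbs8*-/- library of replicate 3 called it (log2 fold change 2.26, adjusted p = 0.0432). The 4 *Bbs8*-/- libraries held 62 *Aqp4* counts of 10263874 on all genes, against 16 of 11116424 in the 4 *Bbs8*+/+ libraries.

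*Kcnj10* encodes Kir4.1, the inward rectifier that gives Müller glia their high potassium conductance. *Kcnj10* (ENSMUSG00000044708, chr1:172341210-172374085, plus strand) had 1, 6, 3 and 0 counts in *Bbs8*+/+ against 0, 9, 7 and 16 counts in the *Bbs8*-/- libraries. The groups overlapped because 1 *Bbs8*-/- library was at 0, as was 1 of *Bbs8*+/+. The *Bbs8*-/- libraries with 9, 7 and 16 counts were above every *Bbs8*+/+ library. At or under the floor were 3 of the 4 *Bbs8*+/+ libraries and 1 of the 4 *Bbs8*-/- libraries. The means were 0.952 ± 1.00 and 2.91 ± 2.30 CPM (SD, n = 4). The log2 fold change was 1.59, with a standard error of 1.02 and a 95% interval of -0.48 to 3.67 (edgeR adjusted p = 0.376). Under 14 alternatives it was between 1.07 and 2.44 and was never called. At this depth and spread between libraries, both no change and a several-fold rise of *Kcnj10* lay within the interval. The *Bbs8*-/- library of replicate 4 had the most counts of both *Kcnj10* and *Aqp4*, whereas that of replicate 1 had 25 *Aqp4* counts and 0 of *Kcnj10*.

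*Vim* encodes vimentin, the intermediate filament protein of Müller glia and of mesenchymal cells. It was far above the floor in every library and was not called. *Vim* (ENSMUSG00000026728, chr2:13573927-13582826, plus strand) had 80.4, 127, 124 and 127 CPM in *Bbs8*+/+ and 106, 81.1, 85.0 and 131 CPM in the *Bbs8*-/- libraries. The *Bbs8*+/+ library of replicate 1 was low and the other 3 were close together, and the *Bbs8*-/- libraries covered the whole *Bbs8*+/+ range. The means were 115 ± 22.8 and 101 ± 22.9 CPM (SD, n = 4). The log2 fold change was -0.18 (standard error 0.15, 95% interval -0.48 to 0.12, edgeR adjusted p = 0.519), and -0.34 to -0.09 under 15 alternatives, none of which called it. In the same range of 100 to 1000 CPM, 38.6% of 1598 genes were called, and their median standard error was 0.11, below that of *Vim*.

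**Figure D2:**
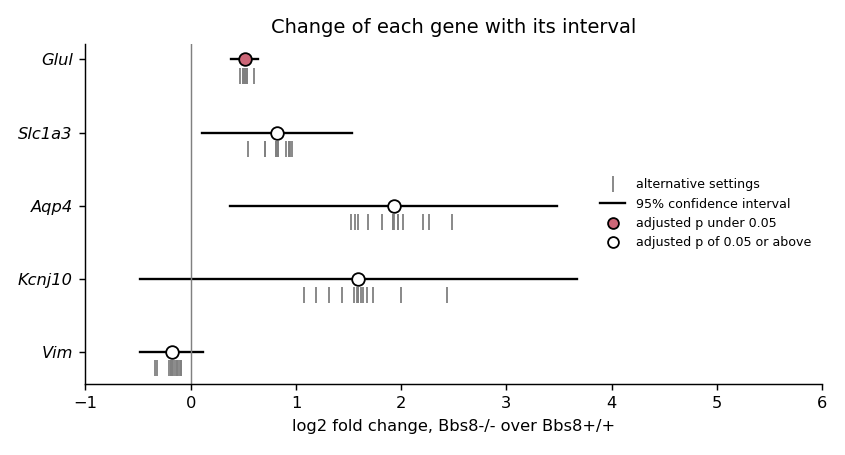
Log2 fold change (*Bbs8*-/- over *Bbs8*+/+) of each gene as a circle with its 95% confidence interval as a line, filled where the adjusted p was under 0.05, and the value under each alternative setting as a short tick below. Only *Glul* is filled; the *Slc1a3* and *Aqp4* intervals lie above 0 without a call, and those of *Kcnj10* and *Vim* cross 0.

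Of the 5 genes, then, 1 was called higher and 0 lower by edgeR. At an unadjusted p under 0.05 the counts were 3 and 0. The share of all genes at that cutoff was not computed, so these counts have no background here. DESeq2 also called 1 higher and 0 lower. The share of all genes called in either direction was 12.3%, and with 5 genes a count of 1 is not separable from that background.

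**Figure D3:**
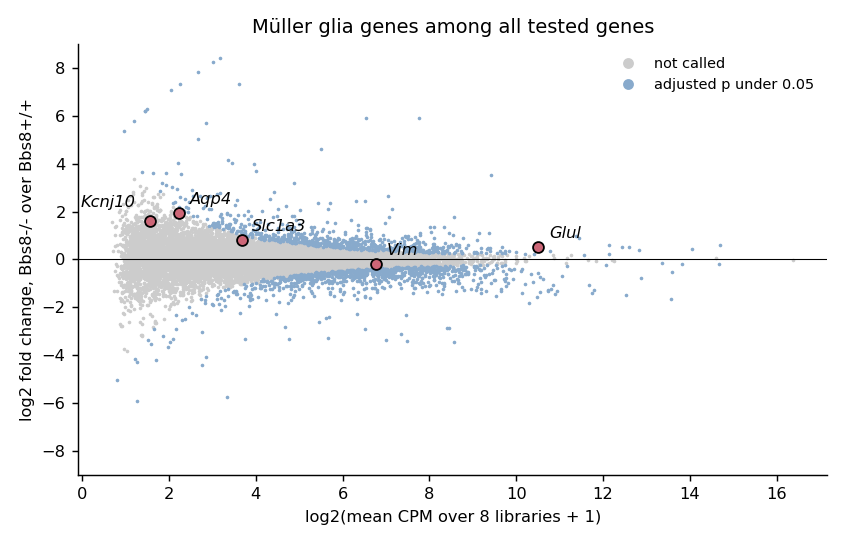
Log2 fold change of every gene tested against log2(mean CPM + 1) over the 8 libraries, blue where the adjusted p was under 0.05 and grey otherwise, with the 5 genes as red circles. *Glul* (0.51) is called at the high end, while *Aqp4* (1.93) and *Kcnj10* (1.59) at the low end are not. The median standard error was 0.06 for genes of 1000 CPM or more and 0.87 for genes under 5 CPM.

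The label of the 5 genes as Müller glia genes was set against 20 other genes known from these cells, of which 19 were tested. The list held both scarce and well-counted genes. *Sox2*, a transcription factor of Müller glia and amacrine cells, had 26 counts in the *Bbs8*+/+ and 18 in the *Bbs8*-/- libraries together (log2 fold change -0.47, edgeR adjusted p = 0.838). *Hes5*, a Notch target, had 22 and 28 counts (0.35, adjusted p = 0.857). *Kcnj16*, the usual partner subunit of Kir4.1, had at most 2 counts in any library and was not tested. *Crb1* and *Dkk3*, by contrast, had 88 to 254 and 141 to 309 counts in a library. *Rlbp1* and *Sox9*, also well counted, are known to be expressed by RPE too. Levels therefore do not show from which cells the *Glul* and *Vim* reads came, and the share from Müller glia was not measured.

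Of these 19 other Müller glia genes, 5 rose and 1 fell, where 5.46% and 6.80% of all genes tested did, with a median log2 fold change of 0.32 against 0.02 for all genes tested. Calls were more frequent among abundant genes in general, at 38.6% of those with 100 to 1000 CPM and 71.2% of those above. *Dkk3*, a secreted modulator of Wnt signaling, rose from 58.2 ± 9.16 to 104 ± 4.87 CPM (log2 fold change 0.83, edgeR adjusted p = 2.98e-05). *Gja1*, which encodes the gap junction protein connexin 43 of glia and RPE, rose from 223 ± 35.8 to 328 ± 27.6 CPM (0.56, adjusted p = 1.35e-04). *Sox9*, a transcription factor of Müller glia and RPE, rose from 481 ± 25.6 to 601 ± 56.3 CPM (0.32, adjusted p = 0.00578). In each of these 3 genes, all of them called, every *Bbs8*-/- library was higher than every *Bbs8*+/+ library, as was the case for 7.42% of all genes tested. *Apoe*, called higher in the same list, did overlap. *Crb1*, a polarity protein of the junctions between Müller glia and photoreceptors, fell from 85.1 ± 10.2 to 40.8 ± 8.94 CPM (-1.06, adjusted p = 8.34e-06). The summed level of the list was 12115 to 13592 CPM in *Bbs8*+/+ and 15338 to 16437 CPM in *Bbs8*-/-. Most of this rise came from *Clu* (4634 ± 258 to 6542 ± 172 CPM) and *Apoe* (4117 ± 366 to 4865 ± 192 CPM), secreted lipid-binding proteins made by many cell types, which are named here after their values were seen. The other 18 genes summed to 4063 to 4207 CPM in *Bbs8*+/+ and 4263 to 4666 CPM in *Bbs8*-/-.

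Glutamate handling, the process of *Glul* and *Slc1a3*, was represented by 16 further genes, of which 13 were tested. Of these, 1 rose and 4 fell, where 5.46% and 6.80% of all genes tested did, and the median log2 fold change was -0.29. With 13 genes, the 1 that rose is near that background. *Slc1a1*, the neuronal and epithelial glutamate transporter EAAC1, rose from 252 ± 36.8 to 404 ± 31.0 CPM (0.68, edgeR adjusted p = 1.59e-06). *Slc1a2*, the transporter GLT-1, fell from 221 ± 13.2 to 148 ± 4.84 CPM (-0.58, adjusted p = 3.86e-05). *Slc1a7*, the transporter EAAT5 of photoreceptors and bipolar cells, fell from 20.2 ± 6.48 to 8.74 ± 4.26 CPM (-1.19, adjusted p = 0.0171), with ranges that overlapped. The count of 4 fell to 2 with scaling by library size and without the *Bbs8*+/+ library of replicate 2 or 4 or the *Bbs8*-/- library of replicate 1 or 3. With scaling by library size, or without the *Bbs8*-/- library of replicate 1, the number that rose was 2.

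Of 18 genes for other aquaporins and the proteins that anchor water channels, 11 were tested. Of these, 3 rose and 2 fell, where 5.46% and 6.80% of all genes tested did, with a median of 0.05. *Aqp1*, a water channel of RPE, photoreceptors and red blood cells, fell from 69.0 ± 17.2 to 30.4 ± 2.14 CPM (-1.18, edgeR adjusted p = 9.66e-06). *Dmd*, dystrophin, fell from 252 ± 27.8 to 139 ± 6.57 CPM (-0.86, adjusted p = 4.61e-08). *Agrn*, the matrix proteoglycan agrin, rose from 12.5 ± 2.87 to 25.1 ± 5.69 CPM (0.99, adjusted p = 0.0119), and *Dtna*, dystrobrevin alpha, from 44.0 ± 6.09 to 66.8 ± 13.1 CPM (0.60, adjusted p = 0.0140). *Dag1*, dystroglycan, was not called (log2 fold change 0.22, adjusted p = 0.194). Without the *Bbs8*-/- library of replicate 3 the number that rose was 1.

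Among 16 genes for other inward rectifier channels and their regulatory subunits, 5 were tested. By edgeR 0 rose and 1 fell, where 5.46% and 6.80% of all genes tested did, and 5 genes are too few to set apart from that background. The counts were also 0 and 1 with DESeq2, and the median was -0.10. An unadjusted p under 0.05 added no gene, and the share of all genes at that cutoff was not computed. *Kcnj14* fell from 165 ± 15.8 to 74.8 ± 2.82 CPM (log2 fold change -1.14, adjusted p = 2.14e-09), with every *Bbs8*-/- library below every *Bbs8*+/+ library. Of all genes tested, 16.1% did not overlap in either direction. *Kcnj13*, the Kir7.1 channel of the RPE apical membrane, stood at 299 ± 19.8 and 279 ± 24.2 CPM (-0.10, adjusted p = 0.563).

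Of 18 intermediate filament and linker genes, the family and partners of *Vim*, 16 were tested. Of these, 4 rose and 2 fell, where 5.46% and 6.80% of all genes tested did, with a median of 0.24. *Gfap*, the filament protein of astrocytes and of reactive Müller glia, had 1, 0, 6 and 4 counts in *Bbs8*+/+ and 17, 23, 10 and 11 counts in *Bbs8*-/- libraries (log2 fold change 2.41, standard error 0.80, edgeR adjusted p = 0.0417). With 2 of the 4 *Bbs8*+/+ libraries at or under the floor, *Gfap* passed the filter only by help of *Bbs8*-/- libraries. Its count as a rise is therefore not evidence of direction. *Nefm*, a neurofilament subunit, had 5, 4, 5 and 9 counts against 10, 9, 24 and 39 (1.82, adjusted p = 0.0401). *Synm*, synemin, which forms filaments with vimentin, fell from 34.1 ± 8.78 to 15.9 ± 5.24 CPM (-1.09, adjusted p = 0.00300). *Lmnb1*, lamin B1 of the nuclear envelope, fell from 42.5 ± 7.33 to 25.4 ± 3.57 CPM (-0.74, adjusted p = 0.0118). *Plec*, plectin, which links filaments to junctions, was not called (log2 fold change 0.10, adjusted p = 0.843). *Nes*, nestin, had at most 4 counts in any library and was not tested. The number called higher by edgeR was 0 without the *Bbs8*+/+ library of replicate 2, and 2 without the *Bbs8*-/- library of replicate 2 or of replicate 3.

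Genes of reactive glia were set beside the resting genes. Of 16 such genes 12 were tested. By edgeR 8 rose and 0 fell, where 5.46% and 6.80% of all genes tested did, and DESeq2 gave the same counts. An unadjusted p under 0.05 added no gene in either direction, and the share of all genes at that cutoff was not computed. The median log2 fold change was 1.71, and the lowest was -0.54, without a call. The summed level was 268 to 345 CPM in *Bbs8*+/+ and 1385 to 1509 CPM in *Bbs8*-/-. *C4b*, complement component 4, rose from 3.02 ± 1.09 to 182 ± 13.0 CPM (5.91, adjusted p = 1.46e-23). *Edn2*, an endothelin that injured photoreceptors are known to make, had 0 counts in all 4 *Bbs8*+/+ libraries and 32, 35, 47 and 56 counts in the *Bbs8*-/- libraries, at least 14.3-fold higher than the mean floor of the *Bbs8*+/+ libraries. With *Edn2* placed at that bound the median was still 1.71. *Edn2* passed the filter through the *Bbs8*-/- libraries alone, so it could only be counted as a rise. *Gfap*, at or under the floor in 2 of the 4 *Bbs8*+/+ libraries, also needed *Bbs8*-/- libraries to pass the filter. The reactive list was chosen with results of these libraries known, and its direction is not independent evidence. *Gfap* is in both this list and that of filament genes.

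**Figure D4:**
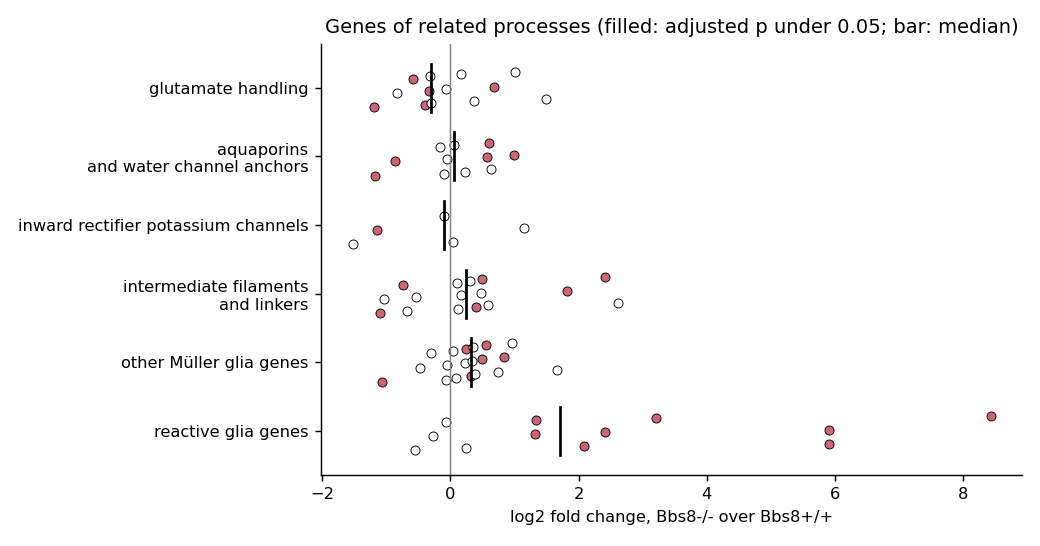
Log2 fold change (*Bbs8*-/- over *Bbs8*+/+) of each tested gene in the 6 lists of related genes, filled where the adjusted p was under 0.05, with the median of each list as a vertical bar. The reactive glia list has its median at 1.71, and the other 5 lists have medians between -0.29 and 0.32.

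Over all 6 lists, 75 of 103 genes were tested. Of these, 20 rose and 10 fell, where 5.46% and 6.80% of all genes tested did, and the median was 0.22. This count includes the reactive genes, which were listed with their direction known. The other 5 lists held 64 tested genes, of which 13 rose and 10 fell, with a median of 0.14. Other cell types that the peeled sheets could hold differed between the genotypes, and their part in the results above was not tested. Rod photoreceptor markers summed to 62333 to 66380 CPM in *Bbs8*+/+ and 26028 to 26694 CPM in *Bbs8*-/- libraries, and 14 of 15 were lower. Lens markers (2408 to 2569 against 498 to 573 CPM, 13 of 13 lower) and erythrocyte markers (5165 to 5729 against 1989 to 2222 CPM, 5 of 6 lower) moved the same way. RPE markers, all 15 of which were tested, summed to 38949 to 40020 and 47021 to 50853 CPM, with 3 higher and 4 lower. The rise of this sum was that of *Ttr*, transthyretin (20970 ± 541 to 31805 ± 1403 CPM), named after its values were seen, and without it the sum was 18251 to 18878 CPM in *Bbs8*+/+ and 17030.1 to 17570 CPM in *Bbs8*-/-.

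Among retinal neurons other than rods, bipolar cell markers summed to 1131 to 1236 and 1235 to 1449 CPM (1 higher and 1 lower of 9), and markers of amacrine, horizontal and ganglion cells to 413 to 434 and 395 to 493 CPM (1 higher of 7). Of all genes tested, 5.46% were called higher and 6.80% lower. Counts of 1 or 2 in lists this short were not set apart from that background. Astrocyte markers, a list that shares *Gfap* and *Slc1a2* with those above, summed to 277 to 310 and 208 to 232 CPM (1 higher and 2 lower of 5). The 1 called higher was *Gfap*, which needed *Bbs8*-/- libraries to pass the filter. *Pax2*, which defines retinal astrocytes, was at or under the floor in all 8 libraries. Fibroblast and mural cell markers, whose cells also make vimentin, summed to 1160 to 1561 and 1093 to 1326 CPM (2 lower of 10). Their lowest *Bbs8*+/+ library was that of replicate 1, which was also the lowest for *Vim*. The match did not hold in *Bbs8*-/-. There the lowest sum was again that of replicate 1 (1093 CPM), where *Vim*, at 106 CPM, was above replicates 2 and 3 (81.1 and 85.0 CPM). A link between these markers and *Vim* was not tested.

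Microglia and macrophage markers (353 to 454 and 322 to 367 CPM) had 0 of 10 genes called by edgeR, 1 lower at an unadjusted p under 0.05, and 0 called by DESeq2. The share of all genes at the unadjusted cutoff was not computed. Endothelial markers (28.7 to 40.0 and 33.7 to 41.3 CPM) had 0 of 7 called by edgeR, by an unadjusted p under 0.05 or by DESeq2, and *Cldn5* was under the floor. Melanocyte and Schwann cell markers summed to 230 to 272 and 282 to 318 CPM (1 higher of 6, where 5.46% of all genes tested were). With 6 genes a count of 1 is not set apart from that background. Ocular surface epithelium markers summed to 10.6 to 14.2 and 80.6 to 99.0 CPM (5 of 5 tested higher). At such low *Bbs8*+/+ levels a gene could pass the filter through the *Bbs8*-/- libraries alone, so the count of 5 is not evidence of direction. *Krt12*, which defines corneal epithelium, was at 0 in every library, and *Trp63* and *Col17a1* were at or under the floor in all.

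**Figure D5:**
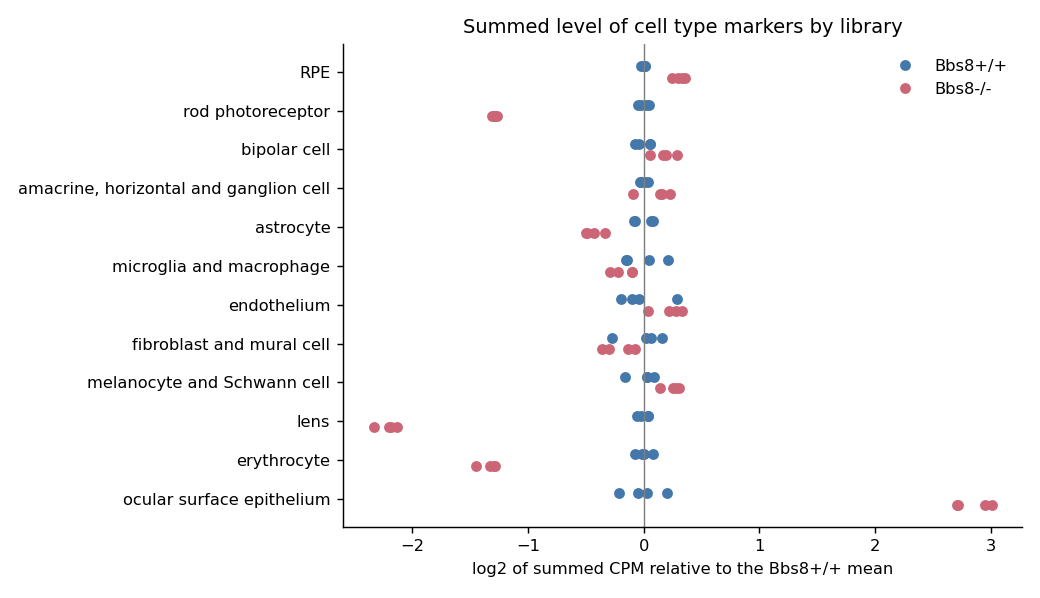
Summed CPM of each cell type marker list in each library, as log2 relative to the mean of the *Bbs8*+/+ libraries, blue for *Bbs8*+/+ and red for *Bbs8*-/-. The rod, lens and erythrocyte sums are lower in every *Bbs8*-/- library (for rods at most 26694 against at least 62333 CPM) and the ocular surface sums are higher (at least 80.6 against at most 14.2 CPM).

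For each of the 5 genes, the genes with the most similar pattern over the 8 libraries were found among tested genes whose mean reached 10 CPM, by the root mean square difference of centred log2 CPM. Those most like *Glul* were *Trf*, transferrin (0.05), *Gpc3* (0.05) and *Ociad2* (0.06), small beside the 0.27 by which *Glul* itself varied around its mean. Their log2 fold changes were 0.51, 0.51 and 0.49. The match was made over both genotypes, so values close to that of *Glul* follow from the selection and are not a separate result. Those most like *Slc1a3* were *Pdk1*, *Zbed3* and *Atg2b* (0.22 to 0.24, against its own 0.54), and among those most like *Vim* were *Ap4s1* and *Peli1* (each 0.12, against its own 0.29). For *Aqp4* (*Golga7*, *Dpy19l3* and *Mto1*, 0.59 to 0.64 against 1.11) and *Kcnj10* (*Arl5a*, *Slc5a5* and *Itpr3*, 0.48 to 0.66 against 1.09) the nearest patterns were farther away.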

How the data were processed

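Reads of P29 RPE libraries were counted by the authors, and this report starts from the deposited counts. The authors trimmed single-end reads of 100 bp with BBDuk, aligned them with STAR to mm10 with Ensembl gene models, and counted unique reads per gene with htseq-count. The deposited counts are whole numbers per Ensembl gene, neither normalized nor filtered. Each file holds 1 library, assigned to a genotype from its label. Rows that name no gene were left out of library sizes (reads in no gene were 17.0% to 20.6% of a library).

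Of 31053 genes, 30934 were named from GENCODE gene models (GRCm38). Genes that reached 1 CPM in 4 or more libraries were tested in R 4.3.3 with the quasi-likelihood F test of edgeR 4.0.16, two-sided, after TMM scaling, with Benjamini-Hochberg adjustment over all 12889 genes and a threshold of 0.05. The filter of the study on multi-mapping reads needs alignments and was not repeated. Alternatives were DESeq2 1.42.0, 2 other scalings, 2 other filters, robust dispersions, a replicate block and each library left out.

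The 5 genes, the lists and the tests were chosen with earlier results of these data known. Genes named were the 5, *Ttc8*, of each related list up to 2 with the largest rise and up to 2 with the largest fall among those called, 14 others set by name, and the 3 genes most like each of the 5. Results for some genes under this rule are not reported here. Where replicate numbers are shared, libraries of the same number did not deviate together.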

Additional observations from a re-analysis of the deposited data

Results flagged for a closer look

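*Vim* in the *Bbs8*+/+ library of replicate 1 (80.4 CPM) stood far from the other 3 libraries of its genotype, which were at 124 to 127 CPM. The same library was set apart for the summed level of glutamate handling genes (1475 CPM, against 1548 to 1562 CPM) and of aquaporins and water channel anchors (1116 CPM, against 1048 to 1057 CPM). The *Bbs8*-/- library of replicate 1 was also low for glutamate handling genes (1464 CPM, against 1516 to 1518 CPM). These flags rest on the gap between the extreme library and its neighbor, and chance flags about 1 in 20 groups. Reads that fell in no gene, which enter none of the comparisons, made up 20.2% ± 0.381 of a *Bbs8*-/- library and 17.5% ± 0.658 of a *Bbs8*+/+ library (SD, n = 4), and every *Bbs8*-/- library (19.8% to 20.6%) was above every *Bbs8*+/+ library (17.0% to 18.4%). This difference was not tested.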

How the results depend on the processing

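*Glul* kept its direction and its call under all 15 alternatives, and *Slc1a3*, *Kcnj10* and *Vim* kept their direction and stayed without a call under all of theirs. *Aqp4* was called only without the *Bbs8*-/- library of replicate 3 (log2 fold change 2.26, adjusted p = 0.0432), and with single libraries left out its log2 fold change ran from 1.53 to 2.48. *Aqp4* and *Kcnj10* were removed by the filter of 10 counts in 4 libraries and have no value there. Scaling by library size alone moved the median log2 fold change of all genes by 0.09. It also moved the log2 ratios of summed markers to 0.40 for RPE, -1.20 for rods, -0.35 for astrocytes, -2.12 for lens and -1.25 for erythrocytes, by construction of the scaling. Replicate numbers are shared by the genotypes, but the deviations of same-numbered libraries had correlations of -0.06, -0.01, 0.01 and -0.01, so the numbers were not taken to pair the animals. With the replicate block the log2 fold change of *Glul* was 0.51 (adjusted p = 3.66e-07), that of *Aqp4* 1.69 (adjusted p = 0.239), and 2 rather than 4 filament genes were called higher. Low counts and spread between libraries both limit *Slc1a3*, *Aqp4* and *Kcnj10*, which had at most 56, 28 and 16 counts in any library. In the *Bbs8*-/- libraries *Aqp4* had 25, 6, 3 and 28 counts and *Kcnj10* had 0, 9, 7 and 16.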
